A study of Mus musculus with 30 samples.

Results

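Cohesin is the ring-shaped protein complex that entraps DNA, holds sister chromatids together and extrudes chromatin loops. The 10 genes described here are its mitotic ring subunits Smc1a, Smc3, Rad21, Stag1 and Stag2, the loader partner Mau2, and the regulators of its acetylation cycle Esco1, Esco2, Cdca5 and Hdac8. They were taken from the deposited gene count table as the entries whose Ensembl identifier maps to these symbols, 10 of 55421 genes. All 10 passed the filter on low counts, which kept 19868 genes for testing.

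The study measured polyadenylated RNA in mouse embryonic stem cell lines of the E14 background in which cohesin cofactors carry degrons, short tags that route a protein to destruction once a small molecule is added. Every line expresses Tir1, the plant receptor that binds AID-tagged proteins in the presence of auxin. The 5 lines were the Tir1 control with no tagged cofactor (TIR1), a line with PDS5A-AID and PDS5B-AID (PDS5AB), a line with WAPL-AID (WAPL), a line with PDS5A-AID, PDS5B-AID, NIPBL-FKBP and RAD21-Halo (PDS5AB-NIPBL), and a line with WAPL-AID, NIPBL-FKBP and RAD21-Halo (WAPL-NIPBL). Each line gave 3 untreated and 3 treated libraries, 30 in all, and treatment lasted 24 h with 500 µM auxin, to which 500 nM dTAG-13 was added in the NIPBL lines to remove the FKBP-tagged protein. FKBP here is the degron recognised by dTAG-13, and Halo is a protein tag that binds dyes. Where the count columns name it, each genotype is represented by 1 line identifier, so a genotype and the history of its line cannot be told apart. The columns of the TIR1 auxin libraries name no line identifier. Those names therefore do not show whether both TIR1 groups come from the same clone. The labels do not say whether replicates were separate cultures, so the p-values measure the spread between these libraries.

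SMC1A and SMC3 form the long arms of the ring, RAD21 closes it, and STAG1 or STAG2 docks onto RAD21 and gives the complex its binding partners. NIPBL with MAU2 loads cohesin and drives loop extrusion, whereas WAPL, bound through PDS5A or PDS5B, opens the ring and releases it. ESCO1 and ESCO2 acetylate SMC3, sororin (the product of Cdca5) binds acetylated cohesin and blocks release, and HDAC8 removes the acetyl mark so that SMC3 can be used again. None of the 10 genes carries a degron in these lines, and only RAD21 carries a tag, in the NIPBL lines. Cells were grown in serum and LIF with the kinase inhibitors PD0325901 and CHIR-99021.

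The libraries held 19632704 to 45539021 counted fragments, and transcripts of the mitochondrial genome took 2.47% to 3.55% of them. Libraries of a group correlated at a Pearson r of 0.987 to 0.994 over genes. The 10 pluripotency markers that were listed, among them Pou5f1, Sox2 and Nanog, summed to between 4841 and 8249 CPM (fragment counts divided by library sizes adjusted with the trimmed mean of M values, TMM) in every library, against 19.4 to 52.2 CPM for 12 markers of differentiating lineages and 4.29 to 21.6 CPM for 6 fibroblast markers. Library numbers fall into 2 ranges. Both PDS5AB groups and the untreated TIR1 group were numbered 1 to 21, and all other groups, the TIR1 auxin libraries included, were numbered 25 to 45. The auxin effect in TIR1 cells, and any comparison with it, therefore cannot be told apart from a difference between these ranges.

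Transcript levels differed widely between the 10 genes. In fragments per kilobase of exon at the CPM scale, averaged over the 30 libraries, Rad21 was the most abundant at 85.4, followed by Smc3 at 56.4, Smc1a at 39.8 and Cdca5 at 36.9. Esco2 stood at 19.5, Stag2 at 13.6, Stag1 at 13.5, Mau2 at 8.82 and Esco1 at 6.64, and Hdac8 was lowest at 1.08. Rad21 lay at percentile 97.4 of the tested genes and Hdac8 at percentile 38.3. The neighbours Stag1 and Stag2 did not differ in this order beyond their spread: Stag1 made up between 42.5% and 54.2% of their length-scaled sum in the 10 group means. Hdac8 rested on 66 to 252 fragments a library, and every other member on at least 669.

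Across the 10 group means the range was widest for Hdac8, which spanned 2.25-fold from 2.79 CPM in WAPL cells with auxin to 6.28 CPM in untreated PDS5AB cells. Esco2 spanned 1.96-fold and Stag1 1.80-fold. Esco1 spanned 1.23-fold, and the range of Mau2 was the narrowest. The PDS5AB auxin group held the lowest mean of Rad21, Smc3, Smc1a, Cdca5 and Esco2, as the plot of levels by library shows.

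**Figure D1:**
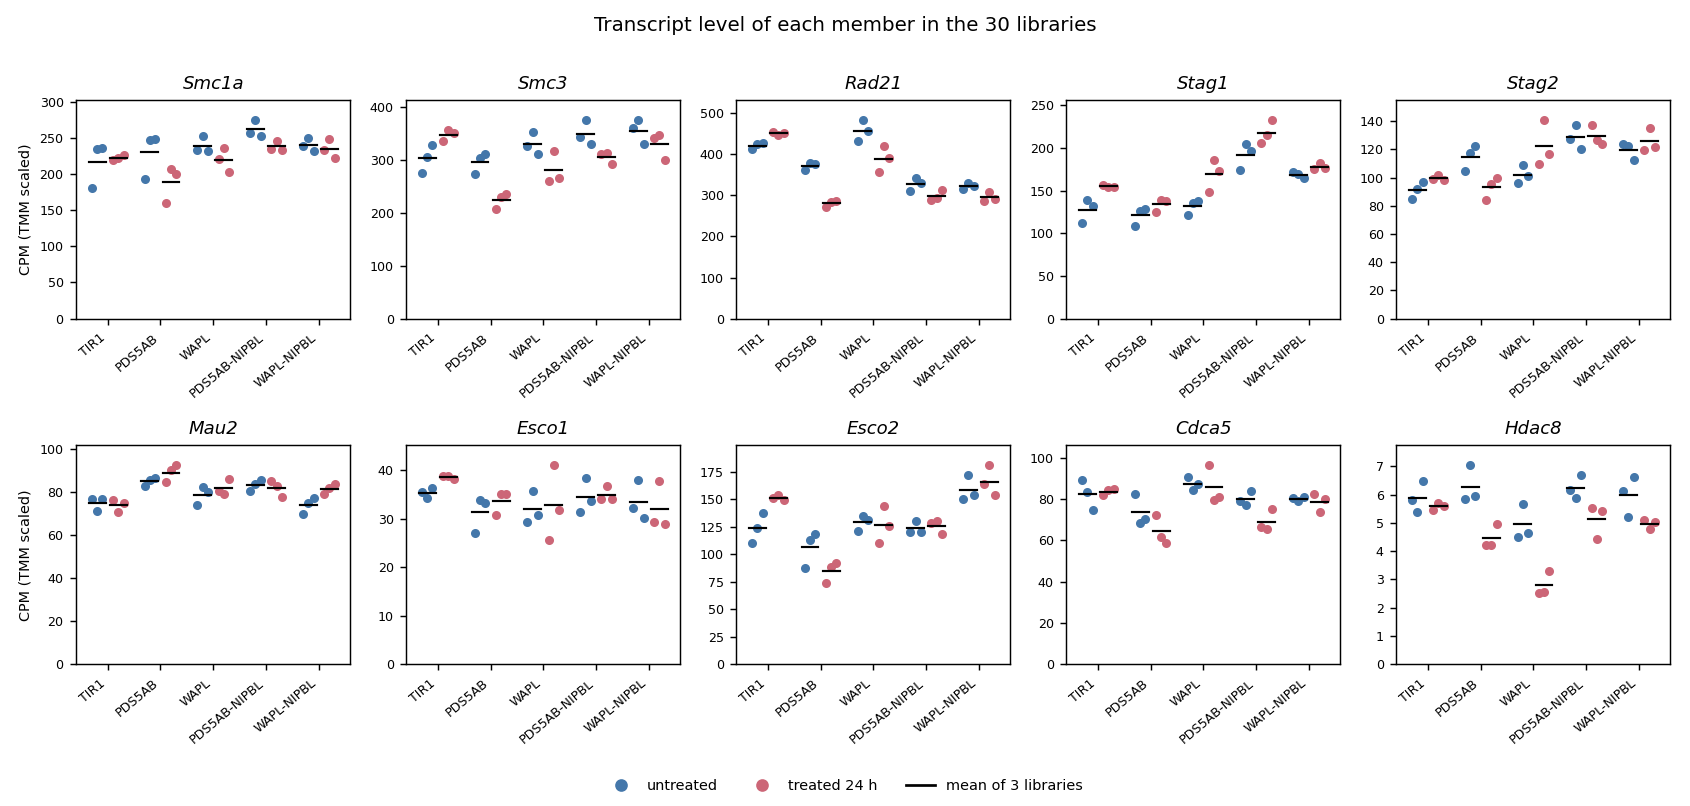
Level of each of the 10 transcripts in CPM (vertical axis, from 0) in the 30 libraries of the 5 lines (horizontal axis); points are libraries in the order of their replicate number, blue untreated and red treated, and black bars are means of 3. Rad21 in the 2 RAD21-Halo lines lies between 287 and 342 CPM, and Hdac8 in WAPL cells with auxin between 2.53 and 3.30 CPM.

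Promoter windows of 300 bases, from 250 before to 50 after the RefSeq start (GRCm38.p6), were found for 6 of the 10 genes. The windows of Stag1, Smc3 and Hdac8 are shown because these 3 genes passed the test in WAPL-depleted cells in opposite directions, Stag1 upward and the other two downward. They lie at chr9:100643198-100643497 on the plus strand (Stag1), chr19:53600146-53600445 on the plus strand (Smc3) and chrX:102505109-102505408 on the minus strand (Hdac8). Capitals mark matches, on either strand, to any of 6 motifs: the CCAAT box CCAAT, the GC box GGGCGG, the E2F motif TTTCCCGC, the YY1 core AAGATGG, the NRF1 core CATGCGC and the TATA box TATAAA.
Stag1: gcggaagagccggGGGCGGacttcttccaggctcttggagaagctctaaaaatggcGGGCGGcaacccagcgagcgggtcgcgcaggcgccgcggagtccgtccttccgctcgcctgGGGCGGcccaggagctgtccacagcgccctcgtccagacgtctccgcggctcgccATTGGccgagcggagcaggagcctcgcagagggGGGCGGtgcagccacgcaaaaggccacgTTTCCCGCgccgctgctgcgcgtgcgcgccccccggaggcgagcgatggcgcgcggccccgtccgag
Smc3: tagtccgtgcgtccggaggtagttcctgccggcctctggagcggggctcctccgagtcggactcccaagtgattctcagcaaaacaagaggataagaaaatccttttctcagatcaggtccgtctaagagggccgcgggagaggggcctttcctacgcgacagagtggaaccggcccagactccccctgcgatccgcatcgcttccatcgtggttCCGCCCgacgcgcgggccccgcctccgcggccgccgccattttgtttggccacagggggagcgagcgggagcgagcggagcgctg
Hdac8: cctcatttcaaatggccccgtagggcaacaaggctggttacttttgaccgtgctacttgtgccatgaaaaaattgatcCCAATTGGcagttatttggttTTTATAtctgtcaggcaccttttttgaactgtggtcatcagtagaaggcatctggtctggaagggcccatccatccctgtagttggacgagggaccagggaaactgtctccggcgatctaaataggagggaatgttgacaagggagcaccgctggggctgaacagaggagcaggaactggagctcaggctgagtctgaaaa
The Stag1 window held 4 GC boxes, 1 CCAAT box and 1 E2F motif, and 73.7% of its bases were G or C. The Smc3 window held 1 GC box at 65% G or C. The Hdac8 window held 2 CCAAT matches that overlap each other and 1 TATA box, no GC box, and 49.7% G or C. Of all 32851 windows of this length, 37.4% held a CCAAT box, 35.7% a GC box, 13.6% a TATA box, 6.34% the YY1 core, 3.91% the NRF1 core and 1.07% the E2F motif. The E2F motif was also in the Smc1a window, and the YY1 and NRF1 cores were in no window of the 6 genes. These matches describe letters in the annotated windows, of which Mau2 has 2 in the table. The gene models behind the counts start at other positions for Stag1, base 100597798 of chromosome 9, and for Hdac8, base 102505359 of chromosome X.

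Treatment was compared with no treatment within each line by edgeR's quasi-likelihood test over all 19868 genes, with Benjamini-Hochberg adjusted p under 0.05 as the call. In PDS5AB cells 6 of the 10 members fell and none rose, where 46% of all tested genes were called, 20.2% lower and 25.8% higher. In WAPL cells 3 fell and 2 rose, against 32.8% of all genes, 15.8% lower and 17% higher. In TIR1 cells 2 rose and none fell, against 19.9%, of which 10.4% of genes were higher. No member was called in PDS5AB-NIPBL cells, where 19.5% of all genes were, or in WAPL-NIPBL cells, where 8.57% were. In those lines 5 and 2 members had an unadjusted p under 0.05, DESeq2 called 0 in each, and the fit with the replicate number as a block called 5 and 1. Without scaling beyond library totals, 3 members fell and 2 rose in PDS5AB cells (Smc3, Rad21 and Hdac8 against Stag1 and Mau2), and 1 fell and 2 rose in WAPL cells (Hdac8 against Stag1 and Stag2). The median log2 effect of the 10 members was -0.29 in PDS5AB cells, where the median of all genes was 0.04, and -0.03 in WAPL cells, where it was 0.00.

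**Figure D2:**
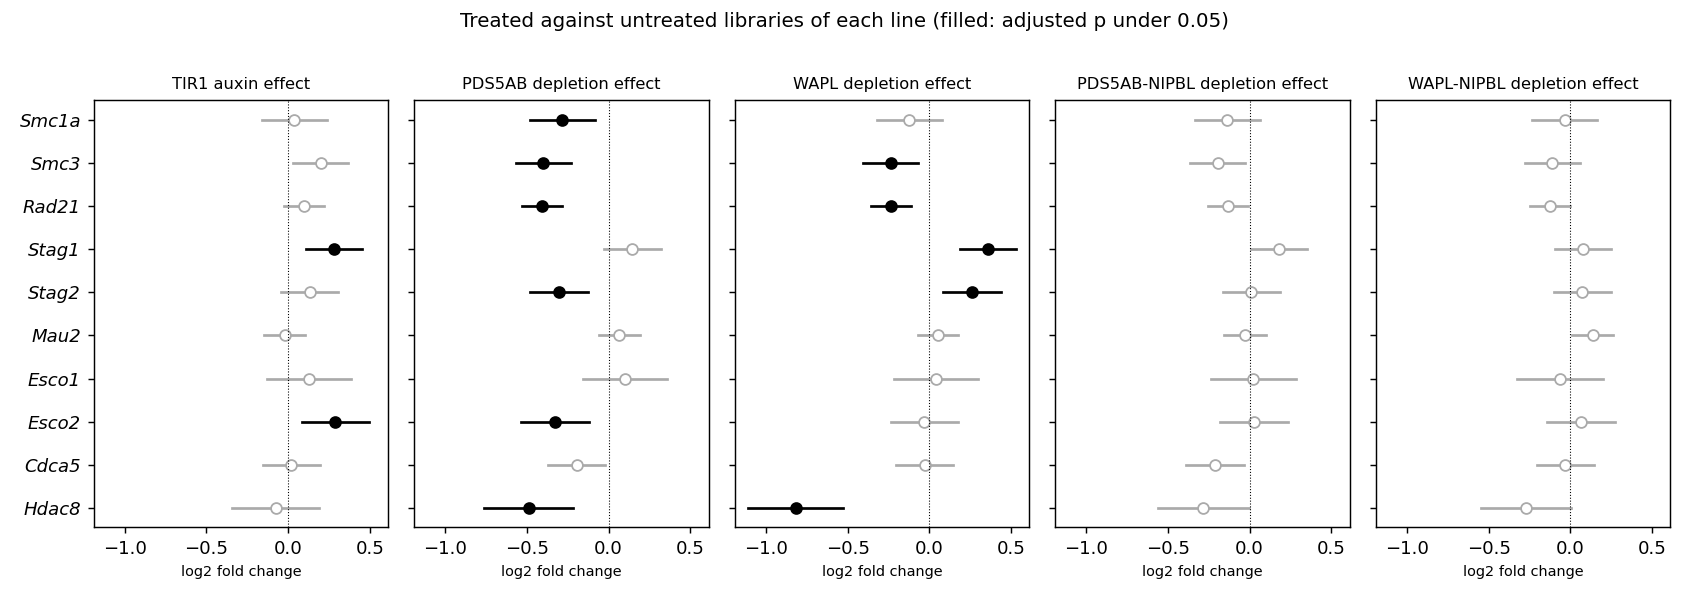
Log2 fold change of treated over untreated libraries (horizontal axis) for the 10 genes (vertical axis) in the 5 lines; points are edgeR estimates, lines are 95% confidence intervals, and filled black points passed an adjusted p of 0.05. Hdac8 has the lowest estimate, -0.82 in WAPL cells, and Stag1 is positive in each of the 5 panels.

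Smc3, an arm of the ring, fell in PDS5AB and WAPL cells. Untreated PDS5AB libraries held 273, 305 and 311 CPM and auxin-treated ones 208, 231 and 235 CPM, with no overlap. The log2 fold change was -0.40 (SE 0.08, adjusted p = 0.000157). In WAPL cells Smc3 stood at 327, 353 and 311 CPM untreated and at 260, 317 and 265 CPM with auxin, so that the second auxin library overlapped the untreated ones. There the log2 fold change was -0.23 (SE 0.08, adjusted p = 0.0248). That call was lost in a fit to the WAPL groups alone (adjusted p = 0.143), without scaling beyond library totals (0.152), and on leaving out untreated replicate 1 or 2 or auxin replicate 1 or 3 (up to 0.173). In bulk RNA, fewer cells with a transcript and less of it per cell cannot be told apart.

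Smc1a, the partner arm, fell in PDS5AB cells, from 193, 248 and 249 CPM to 160, 206 and 200 CPM, a log2 fold change of -0.28 (SE 0.10, adjusted p = 0.0148). The groups overlapped because replicate 1 was low in both. The call was lost without scaling beyond library totals (-0.13, adjusted p = 0.268), without auxin replicate 1 (0.118) and without untreated replicate 2 or 3 (0.0856 and 0.0755). In WAPL cells the log2 difference of Smc1a was -0.12 (95% confidence interval -0.32 to 0.08), with an adjusted p of 0.359, or 0.0155 with a replicate block.

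Rad21, the subunit that closes the ring, fell in the same pair of lines. In PDS5AB cells it went from 361, 378 and 376 CPM to 272, 283 and 286 CPM, a log2 fold change of -0.41 (SE 0.06, adjusted p = 1.61e-06). In WAPL cells it went from 432, 484 and 457 CPM to 356, 421 and 390 CPM, a log2 fold change of -0.24 (SE 0.06, adjusted p = 0.00231). No treated library reached an untreated one in either line. The WAPL call was lost in the fit to its groups alone (-0.21, adjusted p = 0.11) and without scaling beyond library totals (-0.15, adjusted p = 0.0657). In TIR1 cells Rad21 stood at 412, 425 and 427 CPM untreated and 454, 446 and 452 CPM with auxin, which did not pass the test (log2 difference 0.10, adjusted p = 0.258).

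The alternative subunits Stag1 and Stag2 both rose in WAPL cells, where Smc3 and Rad21 fell. In WAPL cells Stag1 rose from 121, 135 and 138 CPM to 149, 185 and 172 CPM, a log2 fold change of 0.36 (SE 0.08, adjusted p = 0.000968). Stag2 rose there from 96.0, 109 and 101 CPM to 109, 141 and 116 CPM, by 0.26 (SE 0.08, adjusted p = 0.0161). The highest untreated Stag2 library came close to the lowest treated one, and the Stag2 call was lost without auxin replicate 2 (0.17, adjusted p = 0.146) or untreated replicate 1 (0.0652), and in the fit to the WAPL groups alone (0.065). Stag1 kept its call under all 13 alternatives tried for it.

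In PDS5AB cells Stag2 fell from 105, 117 and 123 CPM to 83.8, 95.7 and 99.8 CPM, a log2 fold change of -0.30 (SE 0.08, adjusted p = 0.00378), a call lost without scaling beyond library totals (0.154). Stag1 stood at 109, 126 and 128 CPM untreated and 124, 139 and 138 CPM with auxin, which overlapped, with a log2 difference of 0.15 (95% confidence interval -0.03 to 0.32, adjusted p = 0.15, or 0.0231 with a replicate block). Without scaling beyond library totals it was 0.30 (adjusted p = 0.00522). The Stag2 effect in PDS5AB cells was below that in WAPL cells by a log2 difference of -0.57 (SE 0.12, adjusted p = 0.0015), the only member for which these 2 effects differed, where 12.5% of all genes did. With the replicate block 4 more members differed there, all lower in PDS5AB cells: Smc1a (-0.16, adjusted p = 0.0401), Rad21 (-0.17, adjusted p = 0.0428), Stag1 (-0.21, adjusted p = 0.046) and Esco2 (-0.29, adjusted p = 0.00585). With the block the genes that differed rose from 2481 to 4532 of 19868.

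Stag1 also rose with auxin in TIR1 cells, which have no tagged cofactor. It stood at 112, 139 and 132 CPM untreated and 156, 154 and 154 CPM with auxin, a log2 fold change of 0.28 (SE 0.08, adjusted p = 0.0157). Without untreated replicate 1, the lowest library, the adjusted p was 0.0851, and with upper-quartile scaling it was 0.0517. The Stag1 effect in WAPL cells exceeded that in TIR1 cells by 0.08 on the log2 scale (95% confidence interval -0.16 to 0.32, adjusted p = 0.677).

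A ratio of subunits gives these values within each library. It was formed after the values were seen, from genes that had moved in opposite directions, so it is a description and carries no test. The length-scaled level of Stag1 plus Stag2, divided by the mean of Smc1a and Smc3, was 0.528, 0.507 and 0.518 in untreated PDS5AB libraries and 0.633, 0.603 and 0.618 with auxin. In WAPL cells the ratio was 0.440, 0.458 and 0.497 untreated and 0.607, 0.667 and 0.690 with auxin. Every treated library lay above every untreated library in both lines. In PDS5AB-NIPBL cells the means were 0.587 ± 0.018 untreated and 0.708 ± 0.033 treated (SD, n = 3 each), and in WAPL-NIPBL cells 0.543 ± 0.017 and 0.606 ± 0.035 (SD, n = 3 each), again without overlap. In TIR1 cells the ratio was 0.474 ± 0.016 untreated and 0.497 ± 0.013 with auxin (SD, n = 3 each), which overlapped. Whether the ratio changed more in the degron lines than in TIR1 cells was not tested.

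**Figure D3:**
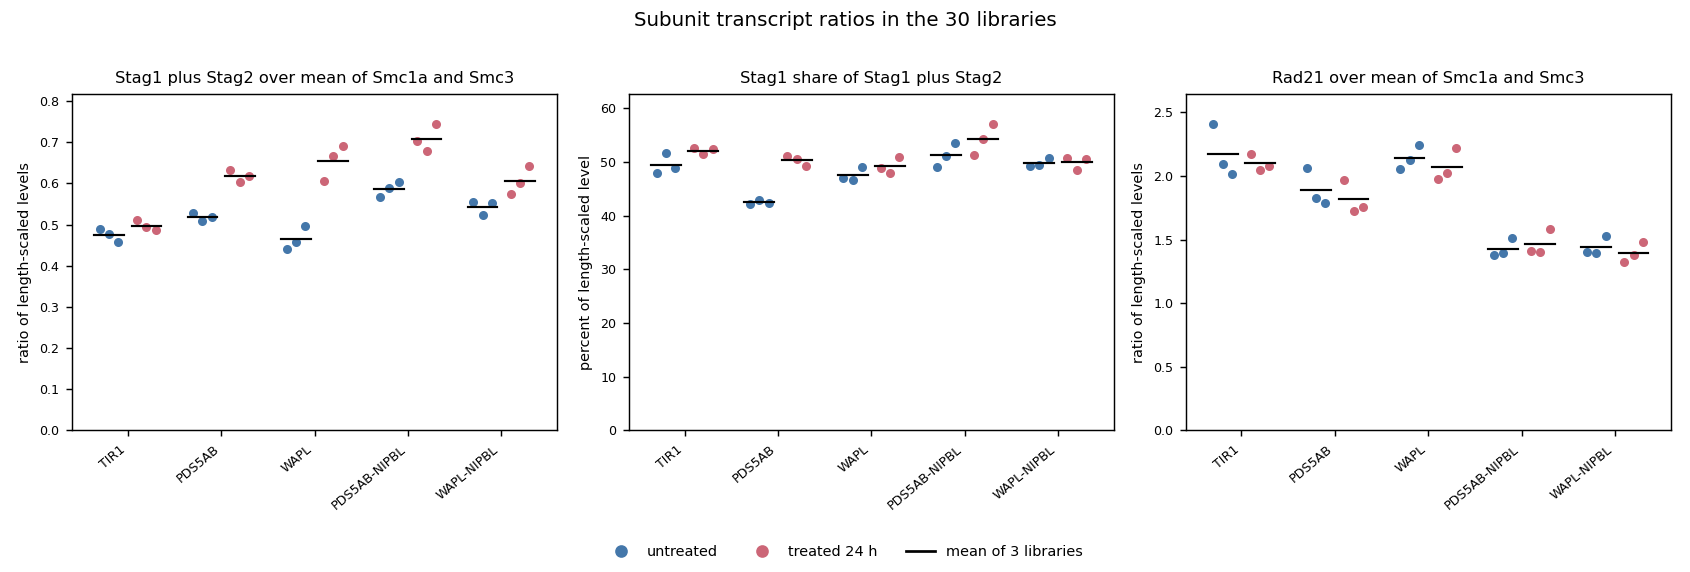
Ratios of length-scaled transcript levels in each library (vertical axes, from 0) by line (horizontal axes); blue points are untreated libraries, red points treated ones, black bars means of 3. In the left panel each treated degron library lies above the untreated libraries of its line; the middle panel gives the Stag1 share in percent; in the right panel the RAD21-Halo lines lie at 1.33 to 1.59, below the 1.73 to 2.41 of the other lines.

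In the GRCm38 annotation the ring subunit genes lie at chromosome X 152016428 to 152062694 (Smc1a), 19 53600398 to 53645833 (Smc3), 15 51962240 to 51991747 (Rad21), 9 100597798 to 100959375 (Stag1) and X 42149317 to 42277185 (Stag2). Counts cover their annotated exons, UTRs included. Stag2 shares 28 exonic bases with Gm37564 on the opposite strand, and no other member shares any. Stag1 and Stag2 have long exonic models, 11781 and 8273 bases against 5769 for Smc1a and 5541 for Smc3, and long transcripts as a class moved in some comparisons. Among genes averaging at least 50 fragments, the median log2 effect of the 2267 with at least 8000 exonic bases was 0.06 in PDS5AB cells and 0.01 in WAPL cells. The 3966 with fewer than 3000 bases had medians of -0.13 and -0.08 there. In TIR1 cells these medians were 0.13 and -0.10. The part of transcript length in the Stag results was not tested.

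The Stag1 share of the Stag1 and Stag2 sum was 42.5% ± 0.363 in untreated PDS5AB cells and 50.3% ± 0.873 with auxin (SD, n = 3 each), without overlap (exact two-sided permutation p = 0.1, the smallest that 3 libraries against 3 allow). It was 47.5% ± 1.28 and 49.3% ± 1.53 in WAPL cells (SD, n = 3 each), where both genes rose and the libraries overlapped (exact permutation p = 0.3), although the share was higher in the treated library of all 3 same-numbered pairs. With 3 pairs an exact paired test cannot go below 0.25. The untreated PDS5AB share was the lowest of the 10 groups. Summed over the 5 ring subunits, the length-scaled level was 205 ± 13.4 CPM per kilobase in untreated PDS5AB cells and 162 ± 10.3 with auxin (SD, n = 3 each). In WAPL cells the sums were 233 ± 12.3 and 210 ± 18.4 (SD, n = 3 each) and overlapped, with the treated library lower in all 3 same-numbered pairs. In PDS5AB-NIPBL cells they were 218 ± 11.1 and 201 ± 1.64 (SD, n = 3 each), all treated libraries lower. In WAPL-NIPBL cells they were 211 ± 7.32 and 200 ± 9.93 (SD, n = 3 each) and overlapped. In TIR1 cells they were 214 ± 13.8 and 233 ± 1.68 (SD, n = 3 each), all auxin libraries higher.

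Mau2, the partner of NIPBL in the loader, was called in none of the 5 treatment effects. Without scaling beyond library totals, which moved the median of all genes to 0.193 on the log2 scale, it was called in PDS5AB cells (0.22, adjusted p = 0.00718). Its log2 estimates ran from -0.03 in PDS5AB-NIPBL cells to 0.14 in WAPL-NIPBL cells, and the 95% confidence intervals together spanned -0.15 to 0.27. In WAPL-NIPBL cells the treated libraries, at 79.4, 81.8 and 84.0 CPM, all lay above the untreated 70.0, 74.96 and 77.6 CPM, with an adjusted p of 0.167. In PDS5AB-NIPBL cells, the other line in which NIPBL was targeted, Mau2 stood at 80.8, 83.9 and 85.9 CPM and at 85.2, 82.9 and 77.7 CPM, fully overlapping.

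Of the SMC3 acetyltransferases, Esco2 was called in PDS5AB and TIR1 cells and Esco1 in no line. Esco2, which acts in S phase, fell in PDS5AB cells from 87.5, 113 and 118 CPM to 74.0, 88.0 and 91.9 CPM, a log2 fold change of -0.33 (SE 0.10, adjusted p = 0.00805). The groups overlapped through replicate 1, and the call was lost without scaling beyond library totals (-0.17, adjusted p = 0.173), without auxin replicate 1 (0.064) or without untreated replicate 3 (0.0626). In TIR1 cells Esco2 rose from 111, 124 and 137 CPM to 151, 154 and 149 CPM, a log2 fold change of 0.29 (SE 0.10, adjusted p = 0.0368), a call lost in 6 of 12 alternatives. Its WAPL values, 121, 135 and 131 CPM untreated and 110, 144 and 126 CPM with auxin, overlapped.

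Esco1 log2 estimates ran from -0.06 to 0.13, with intervals together spanning -0.32 to 0.39, and its lowest adjusted p was 0.509. The Esco1 share of the length-scaled Esco1 and Esco2 sum was 27.8% ± 0.96 in untreated PDS5AB cells and 34.2% ± 0.995 with auxin (SD, n = 3 each), the highest share of the 10 groups. In WAPL-NIPBL cells it was 21.5% ± 1.09 untreated and 20.01% ± 1.26 treated (SD, n = 3 each), the lowest. In TIR1 cells the share was 27.2% ± 2.01 untreated and 24.96% ± 0.182 with auxin (SD, n = 3 each), all auxin libraries lower. Exact permutation gave p = 0.1 in PDS5AB cells, p = 0.2 in WAPL-NIPBL cells and p = 0.1 in TIR1 cells.

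Cdca5, which encodes sororin, was not called in any line. Its lowest estimates were -0.20 in PDS5AB cells (95% confidence interval -0.37 to -0.02, adjusted p = 0.0583) and -0.21 in PDS5AB-NIPBL cells (-0.39 to -0.03, adjusted p = 0.0803). In PDS5AB-NIPBL cells the treated libraries, at 66.6, 65.3 and 74.998 CPM, all lay below the untreated 79.0, 76.9 and 83.7 CPM. With a replicate block the adjusted p was 0.00459 in PDS5AB cells and 0.006 in PDS5AB-NIPBL cells. In PDS5AB cells Cdca5 was also called without the filter on low counts (0.0456) and without auxin replicate 1 (-0.30, adjusted p = 0.0059) or untreated replicate 2 (0.0348), and in PDS5AB-NIPBL cells without treated replicate 3 (0.0488). In WAPL cells the log2 difference was -0.03.

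Hdac8, the SMC3 deacetylase, spans chromosome X 102284639 to 102505359 and had the lowest estimate of any member in any line. In WAPL cells it fell from 4.51, 5.68 and 4.65 CPM to 2.53, 2.55 and 3.30 CPM, a log2 fold change of -0.82 (SE 0.14, adjusted p = 2.93e-05). In PDS5AB cells it fell from 5.83, 7.04 and 5.96 CPM to 4.21, 4.21 and 4.96 CPM, a log2 fold change of -0.49 (SE 0.13, adjusted p = 0.00276). No treated library reached an untreated one in either line, and both calls held under all 13 alternatives tried for each. In the NIPBL lines treated libraries were also all below untreated ones, at -0.28 (adjusted p = 0.146) and -0.27 (adjusted p = 0.239) on the log2 scale, neither of which passed. In TIR1 cells the 3 auxin libraries, 5.47, 5.70 and 5.60 CPM, lay inside the untreated range. Tested directly, the Hdac8 effect in WAPL cells differed from that in TIR1 cells, and the effect in PDS5AB cells did not pass. The latter was called in 1 of 18 alternatives (adjusted p = 0.0493).

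Cell cycle and pluripotency transcripts moved in the same treatments. All 15 listed S phase genes fell in PDS5AB cells, 12 fell in WAPL cells, 9 in PDS5AB-NIPBL cells and 3 in WAPL-NIPBL cells, and in TIR1 cells 5 fell and 2 rose. Of all genes 20.2%, 15.8%, 8.06% and 3.45% fell in the 4 degron lines, in that order, and 9.59% in TIR1 cells. Of 14 G2 and mitosis genes, 10, 2, 0 and 0 fell in the 4 degron lines and 2 in TIR1 cells. Pluripotency markers fell for 10, 7, 8 and 7 of 10 genes, and in TIR1 cells 4 fell and 2 rose. The summed pluripotency level was 7298 to 8249 CPM in untreated PDS5AB libraries and 4841 to 5443 CPM with auxin. Markers of other cell types were listed as well. Of 12 lineage markers 3 rose and 2 fell in PDS5AB cells, where 25.8% of all genes rose and 20.2% fell. In WAPL cells 5 rose and 1 fell, where 17% of all genes rose and 15.8% fell. The summed lineage level was 34.96 to 52.2 CPM untreated and 36.6 to 42.3 CPM with auxin in PDS5AB cells. In WAPL cells it was 25.3 to 27.7 CPM and 26.3 to 31.1 CPM. Of the 3 tested fibroblast markers, Col1a1, Col1a2 and Thy1, 2 rose in PDS5AB cells and 3 fell in WAPL cells, where the sum of the 6 listed went from 13.4 to 14.05 CPM untreated to 4.29 to 5.33 CPM with auxin. The part of these shifts in the levels of the members was not tested.

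The difference between treatment effects was tested directly. Relative to the TIR1 auxin effect, 4 members had lower effects in PDS5AB cells, where 26.3% of all genes differed. These were Smc3 (-0.60, adjusted p = 0.000229), Rad21 (-0.50, adjusted p = 4.2e-05), Stag2 (-0.44, adjusted p = 0.00697) and Esco2 (-0.62, adjusted p = 0.0015), all on the log2 scale. The Stag2 call was lost without scaling beyond library totals (-0.30, adjusted p = 0.0698). Smc1a was not called but gained a call in 6 of 18 alternatives (adjusted p down to 0.0101), and Cdca5 and Hdac8 in 1 of 18 each. In WAPL cells 3 members differed from TIR1, against 20.7% of genes. These were Smc3 (-0.43, adjusted p = 0.00621), Rad21 (-0.33, adjusted p = 0.00412) and Hdac8 (-0.74, adjusted p = 0.00502). Smc3 also differed in PDS5AB-NIPBL cells (-0.40, adjusted p = 0.0241), against 10.1% of genes, a call lost without TIR1 untreated replicate 1 (0.0669), PDS5AB-NIPBL untreated replicate 2 (0.0609) or PDS5AB-NIPBL treated replicate 3 (0.0527). Neither Smc3 effect behind this difference was called on its own in the main fit. The TIR1 effect was 0.20, called in 3 of 12 alternatives. The PDS5AB-NIPBL effect lay between -0.235 and -0.142 with 1 library left out. In WAPL-NIPBL cells edgeR called no member, against 7.04% of genes, with 2 at an unadjusted p under 0.05 and 1 called by DESeq2. These comparisons share the 6 TIR1 libraries and cross the library number ranges.

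Co-depletion of NIPBL was compared with depletion of the release factors alone. Only Rad21 differed between PDS5AB-NIPBL and PDS5AB cells, with a log2 effect higher by 0.27 (SE 0.08, adjusted p = 0.0353), where 9.46% of all genes differed. That call was lost in the fit to these groups alone (0.0651), without the filter on low counts (0.098), without scaling (0.259), and on leaving out PDS5AB auxin replicate 1, PDS5AB untreated replicate 2 or 3, PDS5AB-NIPBL untreated replicate 1 or PDS5AB-NIPBL treated replicate 3 (up to 0.0938). With the replicate block 4 members differed: Rad21, Smc3 (0.21), Stag2 (0.32) and Esco2 (0.35), with adjusted p of 0.00162, 0.0276, 0.00447 and 0.00152. The genes that differed over the whole table rose from 1879 to 3989 with the block, and for WAPL-NIPBL against WAPL cells from 1032 to 2342. No member differed between WAPL-NIPBL and WAPL cells by edgeR or DESeq2, where 5.19% of all genes did, although 2 had an unadjusted p under 0.05. These were Hdac8 (0.55, 95% confidence interval 0.15 to 0.95) and Stag1 (-0.28, 95% confidence interval -0.53 to -0.04), both called with the replicate block at adjusted p of 0.0485 and 0.0132. The lines also differ in the RAD21 tag and in line history, and only the NIPBL lines received dTAG-13. None of these can be told apart from NIPBL. The PDS5AB and PDS5AB-NIPBL libraries also belong to different number ranges.

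The replicate block also altered the within-line counts of the NIPBL lines. Over all 19868 genes it raised the calls from 3874 to 5678 in PDS5AB-NIPBL cells and from 1702 to 3397 in WAPL-NIPBL cells. With it 5 members were called in PDS5AB-NIPBL cells: Smc1a (-0.14, adjusted p = 0.0112), Smc3 (-0.19, adjusted p = 0.00208), Rad21 (-0.13, adjusted p = 0.021), Stag1 (0.18, adjusted p = 0.01) and Cdca5. In WAPL-NIPBL cells it called Rad21 (-0.13, adjusted p = 0.044). Each of these estimates has the sign it had in the matching line without the NIPBL degron.

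Rad21, Stag1 and Stag2 differed between untreated lines. Against the untreated WAPL line, whose libraries belong to the same number range, Rad21 was lower in both RAD21-Halo lines. Untreated WAPL libraries held 432, 484 and 457 CPM of Rad21, PDS5AB-NIPBL 310, 342 and 330.7 CPM and WAPL-NIPBL 315, 329 and 323 CPM. The log2 fold changes were -0.48 (SE 0.06, adjusted p = 2.78e-07) and -0.51 (SE 0.06, adjusted p = 3.17e-07). As a description formed after the values were seen, the length-scaled Rad21 level over the mean of Smc1a and Smc3 was 2.14 ± 0.093 in untreated WAPL cells, 1.43 ± 0.071 in PDS5AB-NIPBL cells and 1.44 ± 0.075 in WAPL-NIPBL cells (SD, n = 3 each). Treated and untreated libraries of a line overlapped in this ratio, although within each degron line all 3 same-numbered pairs moved one way, upward in PDS5AB-NIPBL cells and downward in the other 3 lines.

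Stag1 was higher than in untreated WAPL cells (121, 135 and 138 CPM) in untreated PDS5AB-NIPBL cells (175, 205 and 197 CPM) and WAPL-NIPBL cells (171, 170 and 165 CPM). The log2 fold changes were 0.55 (SE 0.08, adjusted p = 9.04e-06) and 0.36 (SE 0.08, adjusted p = 0.00348). Stag2 was higher in PDS5AB-NIPBL cells by 0.33 (SE 0.08, adjusted p = 0.00439), and in WAPL-NIPBL cells by 0.23 (adjusted p = 0.0859, 0.00414 with a replicate block and 0.0442 in the fit to the compared groups alone). In all, 3 members were called for PDS5AB-NIPBL against 20.1% of genes and 2 for WAPL-NIPBL against 10.7%. With the replicate block 5 and 4 were called, Smc1a (0.13, adjusted p = 0.0147) and Hdac8 (0.33, adjusted p = 0.0454) being gained in PDS5AB-NIPBL cells and Stag2 and Esco2 (0.29, adjusted p = 0.000166) in WAPL-NIPBL cells, and the calls over all genes rose from 3987 to 5725 and from 2119 to 3600. The tag, the NIPBL degron and line history cannot be told apart in these comparisons. PDS5AB-NIPBL and WAPL cells also differ in which cofactor carries AID, and this cannot be told apart either.

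**Figure D4:**
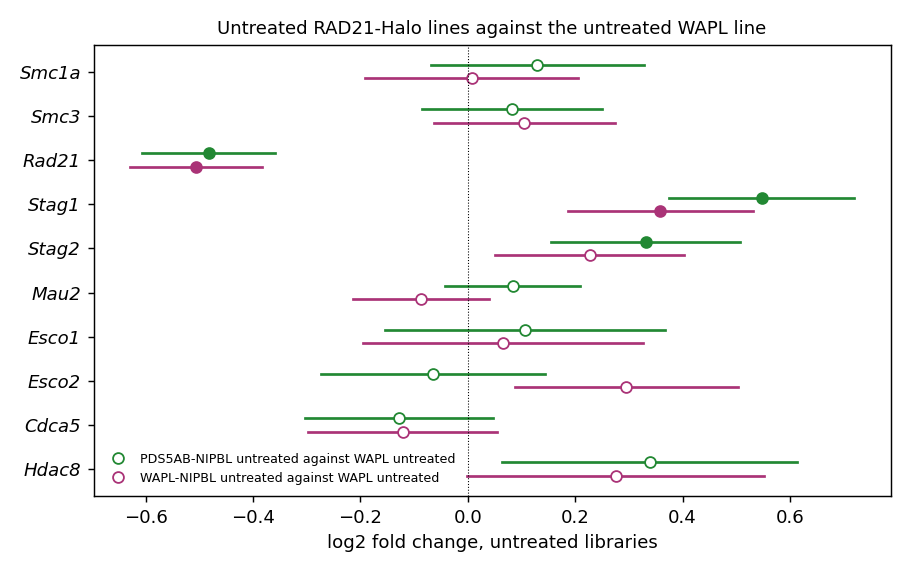
Log2 fold change of the untreated PDS5AB-NIPBL (green) and WAPL-NIPBL (purple) lines over the untreated WAPL line (horizontal axis) for the 10 genes (vertical axis); lines are 95% confidence intervals and filled points passed an adjusted p of 0.05. Rad21 is at -0.48 and -0.51, and Stag1 at 0.55 and 0.36.

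The untreated lines were also set against untreated TIR1 cells. In PDS5AB-NIPBL cells 5 members were called (34.3% of all genes): Rad21 (-0.36), Smc1a (0.27), Smc3 (0.21), Stag1 (0.59) and Stag2 (0.49). In WAPL-NIPBL cells 5 were called (28% of genes): Rad21 (-0.39), Smc3 (0.23), Stag1 (0.40), Stag2 (0.39) and Esco2 (0.36). Adjusted p ranged up to 0.047. In PDS5AB-NIPBL cells the Smc3 call was lost in 6 of 12 alternatives (adjusted p up to 0.204, without TIR1 untreated replicate 1) and the Smc1a call without TIR1 untreated replicate 1 (0.197) or PDS5AB-NIPBL untreated replicate 2 (0.0801). Mau2 was not called in PDS5AB-NIPBL cells but gained a call in 4 of 12 alternatives (adjusted p down to 0.034). In WAPL-NIPBL cells the Smc3 call was lost in 5 of 12 (up to 0.136). The calls of Rad21, Stag1 and Stag2 in both lines, and of Esco2 in WAPL-NIPBL cells, held in all 12 alternatives. In untreated PDS5AB cells, whose libraries share the TIR1 number range, 3 were called (32% of genes): Rad21 (-0.18), Stag2 (0.33) and Mau2 (0.18). Of these, Stag2 held in all 13 alternatives, Rad21 was lost in 6 (adjusted p up to 0.17) and Mau2 in 5 (up to 0.119). With the replicate block Esco2 (-0.23, adjusted p = 0.00113) and Cdca5 (-0.17, adjusted p = 0.0209) were also called there. In untreated WAPL cells edgeR called none, against 14% of genes, with 0 at an unadjusted p under 0.05 and 0 by DESeq2. In the comparisons of the NIPBL lines with TIR1 cells, which cross the library number ranges, the medians of long and short genes were 0.15 and -0.11 for PDS5AB-NIPBL and 0.15 and -0.10 for WAPL-NIPBL. Against WAPL cells they were 0.03 and -0.02, and 0.04 and -0.02. The part of length in these differences was not tested.

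The transcripts of the 4 tagged cofactors differed in both directions between untreated lines. Against untreated TIR1 cells, Pds5a was lower in untreated PDS5AB cells (-1.42, adjusted p = 2.4e-12) and PDS5AB-NIPBL cells (-1.17, adjusted p = 2.76e-10) on the log2 scale. Wapl was lower in the WAPL line (-0.73, adjusted p = 5.25e-08) but not in WAPL-NIPBL cells (0.03, adjusted p = 0.781). Nipbl was lower in WAPL-NIPBL cells (-0.93, adjusted p = 8.29e-08), and in PDS5AB-NIPBL cells its difference of -0.14 did not pass (adjusted p = 0.311). Against untreated WAPL cells, in the same library number range, Nipbl was lower in PDS5AB-NIPBL cells by -0.33 (adjusted p = 0.0233), a call lost without PDS5AB-NIPBL untreated replicate 1 (0.133) or WAPL untreated replicate 2 (0.12) or 3 (0.113). Pds5b, which is AID-tagged in both PDS5AB lines, was not lower in either: its log2 difference was 0.04 in PDS5AB cells (adjusted p = 0.735) and 0.35 in PDS5AB-NIPBL cells (adjusted p = 0.000774). It was also higher in WAPL-NIPBL cells, where it carries no tag (0.30, adjusted p = 0.00358). Against untreated WAPL cells, in the same number range, Pds5b was higher in PDS5AB-NIPBL cells (0.24, adjusted p = 0.0254) and did not pass in WAPL-NIPBL cells (0.19, adjusted p = 0.111).

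Other cohesin genes, listed with earlier results of these data known, moved as follows. Of 4 germline subunits 3 were tested, and Rec8, the meiotic counterpart of Rad21, rose in all 5 lines. Its mean went from 22.5 to 60.4 CPM in PDS5AB cells (log2 fold change 1.42, adjusted p = 2.06e-11), from 18.5 to 37.0 CPM in WAPL cells (1.00, adjusted p = 4.21e-08) and rose by 0.74 on the log2 scale in TIR1 cells (adjusted p = 2.37e-05). It rose by 0.67 and 0.47 in PDS5AB-NIPBL and WAPL-NIPBL cells. Smc1b and Stag3 passed in none of the 5.

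Among all genes 20.2% fell in PDS5AB cells, 15.8% in WAPL cells, 8.06% in PDS5AB-NIPBL cells and 3.45% in WAPL-NIPBL cells. In TIR1 cells 9.59% fell and 10.4% rose. The counts of the lists below stand beside these shares. Of 8 genes of mitotic cohesin removal and protection, 4 fell in PDS5AB cells, 5 in WAPL cells, 2 in PDS5AB-NIPBL cells and 0 in WAPL-NIPBL cells, and in TIR1 cells 1 rose and 1 fell. The list's median log2 effect was -0.25 in PDS5AB and -0.22 in WAPL cells, where the medians over all genes were 0.04 and 0.00. Among them were Sgo1, the centromeric protector of cohesin (-0.60 in PDS5AB cells), and Pttg1, the securin that restrains separase (-0.46 in WAPL cells). Of the 5 in WAPL cells, Espl1 and Sgo1 lost their call under 9 and 6 of 13 alternatives. Of 7 replication fork factors linked to cohesion, 1 of which, Chtf8, shares 2786 exonic bases with a second entry of its own symbol and was called in no treatment effect, 5, 4, 1 and 0 fell in the degron lines and 1 in TIR1 cells, with medians of -0.33 in PDS5AB and -0.22 in WAPL cells and with Wdhd1 at -0.41 in PDS5AB cells and Tipin at -0.80 in WAPL cells. Of 7 boundary and enhancer partners 4 fell in PDS5AB cells, led by Maz (-0.60), Zfp143 (-0.47) and Ctcf (-0.27). In WAPL cells 3 fell, among them Maz, whose call was lost in 7 of 13 alternatives (adjusted p up to 0.251). In PDS5AB-NIPBL cells 1 fell, Zfp143, a call lost in 4 of 13. The median log2 effect of these partners was -0.138, -0.115 and -0.081 in PDS5AB, WAPL and PDS5AB-NIPBL cells. Med12, a Mediator subunit, rose in WAPL cells (0.45), in WAPL-NIPBL cells (0.32, adjusted p = 0.00294) and with auxin in TIR1 cells (0.23, adjusted p = 0.0229), the last a call lost in 4 of 12 alternatives. Med1 rose in TIR1 cells as well (0.24), a call lost in 5 of 12.

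Replicates of a group varied together in several members. Replicate 1 of both PDS5AB groups and of untreated TIR1 cells was the lowest of its group in Smc1a, Smc3, Stag1, Stag2 and Esco2, and the highest in Cdca5. After group means were removed, r over the 30 libraries was 0.806 between Smc1a and Smc3, 0.869 between Stag2 and Esco2, and -0.905 between Esco2 and Cdca5. These points share libraries and are given as description. Cdca5 has the shortest exonic model of the 10, at 2129 bases. The within-group difference between genes with at least 8000 and fewer than 3000 exonic bases correlated with Rad21 at 0.802 and with Esco1 at 0.758. It correlated with Stag1 at 0.579, with Stag2 at 0.568 and with Cdca5 at -0.497.

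Over the 10 group means Smc1a and Smc3 correlated at 0.85 and Stag1 and Stag2 at 0.778, whereas Rad21 and Stag1 had an r of -0.487. Of 12940 genes averaging at least 50 fragments, those most like Hdac8 over the 10 groups were Strap (r = 0.977), Yars2 (0.976) and Commd1 (0.973). Those most like Esco2 were Dnah8 (0.981), Naa20 (0.981) and Spcs3 (0.974). Those most like Stag1 were Gm43737 (0.946), Mark3 (0.945) and Kdm4a (0.944). An r above 0.9 was shared with Esco2 by 186 genes, with Stag1 by 34 and with Hdac8 by 30.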

How the data were processed

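RNA was read as paired fragments from 30 libraries of mouse embryonic stem cells, 3 per group. Per the file headers, the authors deposited raw counts per gene made with featureCounts 2.0.1 in paired-end mode on the GENCODE vM23 annotation, with no strand or multi-mapping option, so antisense reads cannot be separated. The exon length deposited beside the counts, in bases, is used only for length-scaled levels. The submitters' processing notes name STAR 2.7.7a and the mouse build GRCm38.p6. Symbols were found for 55154 of 55421 identifiers, and 0 columns were left unused.

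The counts as deposited were fitted in R 4.3.3 with edgeR 4.0.16: filterByExpr with a minimum count of 10, TMM scaling, 1 quasi-likelihood model over the 10 groups, and Benjamini-Hochberg adjustment over 19868 genes with a threshold of 0.05. Each SE was formed as the size of the log2 estimate over the square root of its F statistic. Confidence intervals used that SE and a t distribution on 20 degrees of freedom. The test itself takes its degrees of freedom from the fit, so intervals and p-values need not match exactly. DESeq2 1.42.0, other scalings, no filter, fits to the compared groups alone, a replicate block and leaving out each library were alternatives. The Stag1 and Esco1 shares were compared by exact two-sided permutation. The ratios of Stag1 plus Stag2, and of Rad21, to the mean of Smc1a and Smc3 were added after seeing the data and are descriptions. Depth was 19632704 to 45539021 fragments, of which Hdac8 drew the fewest of any member. The median SD within groups was 10.1% of the mean for Hdac8 and 10.4% for Esco1. The procedure was tested on simulated data.

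Same-numbered libraries deviated together in the 4 degron lines (r of 0.109 to 0.333 over genes, all pairs over 0.1) but not in TIR1 cells (-0.0102 to 0.0574). The replicate number was taken from the labels. The block did not pair libraries line by line. It fitted an effect of each replicate number per library number range, shared by all lines of that range, TIR1 included. Whether the lines share such an effect was not tested. The calls reported first come from the fit without this block, and values with the block are printed where it changes a call. The text names all 10 members, at most 3 called genes of each other list and effect, and the 3 genes most like each of the 3 members with the widest range. Members and lists were chosen with earlier results of these data known.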

Additional observations from a re-analysis of the deposited data

Results flagged for a closer look

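These treatment effects differed between lines by edgeR's test of the difference itself, given on the log2 scale. Relative to TIR1 cells, the effect in PDS5AB cells was lower for Smc3 (-0.60), Rad21 (-0.50), Stag2 (-0.44) and Esco2 (-0.62). In WAPL cells it was lower for Smc3 (-0.43), Rad21 (-0.33) and Hdac8 (-0.74), and in PDS5AB-NIPBL cells for Smc3 (-0.40). The Rad21 effect was higher in PDS5AB-NIPBL than in PDS5AB cells (0.27), and the Stag2 effect was lower in PDS5AB than in WAPL cells (-0.57). The differences from TIR1 cells share the same 6 TIR1 libraries, which span both ranges of library numbers.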

How the results depend on the processing

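Over 75 results on the members, 972 of 1102 values under the alternatives kept their direction and their side of the threshold, 63 lost a call, 67 gained one and 0 reversed. Over 46 results on other named genes, 535 of 587 kept both and 52 lost the call. Counts of members called are given next, and the cause of each shift was not tested. Upper-quartile scaling gave 0 in TIR1 cells. Library totals without further scaling gave 3 in WAPL cells (1 lower, 2 higher), 5 in PDS5AB cells (3 lower, 2 higher) and 0 for PDS5AB-NIPBL against PDS5AB effects. They moved the median of all genes in the PDS5AB effect to 0.193 on the log2 scale from 0.038 and the share of higher calls to 74.9% from 56.1%. Fits to the compared groups alone gave 2 in WAPL cells, 1 for untreated PDS5AB against TIR1, 4 for untreated WAPL-NIPBL against WAPL, 1 for WAPL-NIPBL against TIR1 effects and 0 for PDS5AB-NIPBL against PDS5AB effects. Omitting the filter gave 1 for untreated PDS5AB against TIR1 and 1 for WAPL-NIPBL against TIR1 effects. DESeq2 gave 2 for PDS5AB-NIPBL and 1 for WAPL-NIPBL against TIR1 effects.

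With the replicate block the counts were 8 in PDS5AB cells (Stag1 and Cdca5 gained), 6 in WAPL cells (Smc1a gained), 5 in PDS5AB-NIPBL cells, 1 in WAPL-NIPBL cells, 5 for untreated PDS5AB against TIR1, 5 and 4 for untreated PDS5AB-NIPBL and WAPL-NIPBL against WAPL, 4 for PDS5AB-NIPBL against PDS5AB effects, 2 for WAPL-NIPBL against WAPL effects and 5 for PDS5AB against WAPL effects. The block raised the calls over all genes in each of these comparisons, for example from 9134 to 10760 in PDS5AB cells, from 6517 to 8343 in WAPL cells and from 6362 to 8035 for untreated PDS5AB against TIR1. The block was not run where libraries of 1 group are set directly against libraries of the other number range, which includes the TIR1 auxin effect. Among differences of effects it was run for PDS5AB-NIPBL against PDS5AB, WAPL-NIPBL against WAPL, and PDS5AB against WAPL. It was not run for the differences from the TIR1 auxin effect.

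Leaving out 1 library at a time gave 0 to 3 calls in TIR1 cells, 4 to 6 in PDS5AB cells, 3 to 5 in WAPL cells, 0 to 1 in PDS5AB-NIPBL cells and 0 in WAPL-NIPBL cells. Untreated PDS5AB-NIPBL against TIR1 gave 3 to 6. The differences of effects gave 0 to 2 for PDS5AB-NIPBL against TIR1, 0 to 3 for PDS5AB-NIPBL against PDS5AB, 0 to 1 for WAPL-NIPBL against WAPL and 1 to 2 for PDS5AB against WAPL. The change in the Stag1 share in WAPL-NIPBL cells lay between -0.298 and 0.775 percentage points, with -0.155, -0.128 and -0.208 among the values below 0. The change in the Esco1 share lay between -0.328 and 1.61 points in WAPL cells and between -0.614 and 0.602 in PDS5AB-NIPBL cells, where -0.13 and -0.357 were also below 0. Hdac8 had the fewest fragments of the members, at 66 to 252 a library.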

Other observations

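Smc1b, the germline counterpart of Smc1a, differed between untreated lines and was chosen for mention after its values were seen. It averaged 8.43 CPM in untreated PDS5AB cells and 7.49 CPM in untreated PDS5AB-NIPBL cells, and at least 19.1 CPM in each group of the other lines. Rad21l, the other germline kleisin, was not tested and lay between 0 and 0.11 CPM in the group means.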
